A study of Mus musculus with 66 samples.

Results

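Genes of the extracellular matrix and of cell adhesion were followed in the mouse cerebellum from the third week of life to about 24 months, on an ad libitum and on a calorie-restricted diet. The group was taken by gene symbol, with no filter on signal, from the probes of a nylon filter of mouse cDNA clones. It held the collagens, integrins, ADAM and ADAMTS metalloproteinases, latent TGF-beta binding proteins, cadherins, protocadherins, fibulins and laminins that carried 1 symbol, with Tnc, Fn1 and Sparc. These were 43 genes on 54 probes, of 4209 genes with a single symbol and 8448 probes in all. Tnr, Ncam1, Ncam2, Nrcam and the fibrillins had no probe of their own among these.

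RNA of the whole cerebellum of 66 C57BL/6 mice was hybridized, each mouse to its own filter. The restricted mice received regular feed until 13 weeks and were then brought in steps to 60% of the feed in fortified form, whereas all other mice ate regular feed ad libitum. The third week held 5 mice of 17 to 21 days (3 females, 2 males) and the sixth week 5 mice of 33 to 44 days (2 females, 3 males), all ad libitum. At 6 months there were 9 restricted and 10 ad libitum mice. The cohort of 16 months had 10 of each, and the oldest cohort had 8 restricted mice beside 9 fed ad libitum. Restricted males of the oldest cohort were 673 days old, against 719 to 743 days for the ad libitum males, so that diet and age cannot be told apart in them. The study asked how age, energy intake and sex alter transcripts of this and other regions of the central nervous system.

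Collagens and laminins build fibrils and basement membranes, which in the brain lie mainly around vessels and in the meninges. Integrins bind these proteins at the cell surface, cadherins and protocadherins join cells to each other, and ADAM and ADAMTS enzymes cut matrix and membrane proteins. In the cerebellum, tenascin C and N-cadherin are known from glia and from migrating and synapse-forming neurons. Since whole tissue was used, fewer cells of a type and less RNA per cell cannot be told apart.

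The alpha 1 and alpha 2 chains of collagen IV, which form a common trimer in basement membranes, are transcribed in opposite directions from neighbouring starts. Their promoter windows are shown because both genes were on the filter, at different levels. Sequences are those of RefSeq on GRCm38.p6, from 250 bases before to 50 bases after each start, 5′ to 3′ on the gene's own strand. Capitals mark the GC box GGGCGG and the CCAAT box CCAAT on either strand. The Col4a1 window lies at chr8:11312777-11313076 on the minus strand and the Col4a2 window at chr8:11312555-11312854 on the plus strand.
Col4a1: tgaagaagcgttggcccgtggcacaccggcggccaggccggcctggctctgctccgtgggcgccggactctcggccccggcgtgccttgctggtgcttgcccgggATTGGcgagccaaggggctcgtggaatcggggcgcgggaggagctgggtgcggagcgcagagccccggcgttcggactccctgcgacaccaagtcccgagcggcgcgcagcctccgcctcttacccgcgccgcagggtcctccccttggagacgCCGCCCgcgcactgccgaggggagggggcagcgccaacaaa
Col4a2: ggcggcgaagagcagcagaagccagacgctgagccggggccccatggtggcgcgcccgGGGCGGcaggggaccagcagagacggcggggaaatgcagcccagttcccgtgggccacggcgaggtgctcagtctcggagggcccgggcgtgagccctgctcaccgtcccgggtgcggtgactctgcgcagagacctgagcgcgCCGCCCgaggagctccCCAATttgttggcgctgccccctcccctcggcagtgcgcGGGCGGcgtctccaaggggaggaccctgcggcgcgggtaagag
The windows shared 78 bases, and their starts lay 21 bases apart. The GC content was 74.0% for Col4a1 and 73.7% for Col4a2, against a median of 52.7% over the 32851 mouse promoter windows. The GC box occurred once in the Col4a1 window and 3 times in the Col4a2 window, and 35.7% of all windows held it. The Col4a1 match and the last Col4a2 match are the same site in the shared bases, which thus counts in both windows. CCAAT occurred once in each, as in 37.4% of all windows, and neither held TATAAA, which 13.6% of all windows did. Promoter windows were found for 30 of the 43 genes, 35 windows in all, of which 23 held the GC box. These matches describe letters, and nothing measured here bears on binding.

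Levels were Z scores, which place a probe within its own array: 0 is the mean of the array and 1 unit is the SD of its probes. Z scores of different genes depend on the probe as well as on the transcript, so their order is an order of spots. Of the 43 genes, 21 had a mean above 0 over the 63 arrays used (48.8%, against 44.5% of all genes), and their median was -0.03 against -0.12 for all genes. The brightest spot was Adam10, which encodes the sheddase of Notch and N-cadherin, at 2.23 ± 0.13 (SD, 63 arrays). It was brighter than 99.8% of the genes. Ltbp1, a protein that tethers latent TGF-beta in the matrix, followed at 1.92 ± 0.21, and Cdh22, a cadherin of the brain, at 1.92 ± 0.14. The matrix glycoprotein tenascin C (Tnc) lay at 1.88 ± 0.20 and N-cadherin (Cdh2) at 1.59 ± 0.12. Among these 5 genes, Ltbp1, Cdh22 and Tnc differed by less than their SD, whereas the steps below Adam10 and below Tnc were larger than it.

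**Figure D1:**
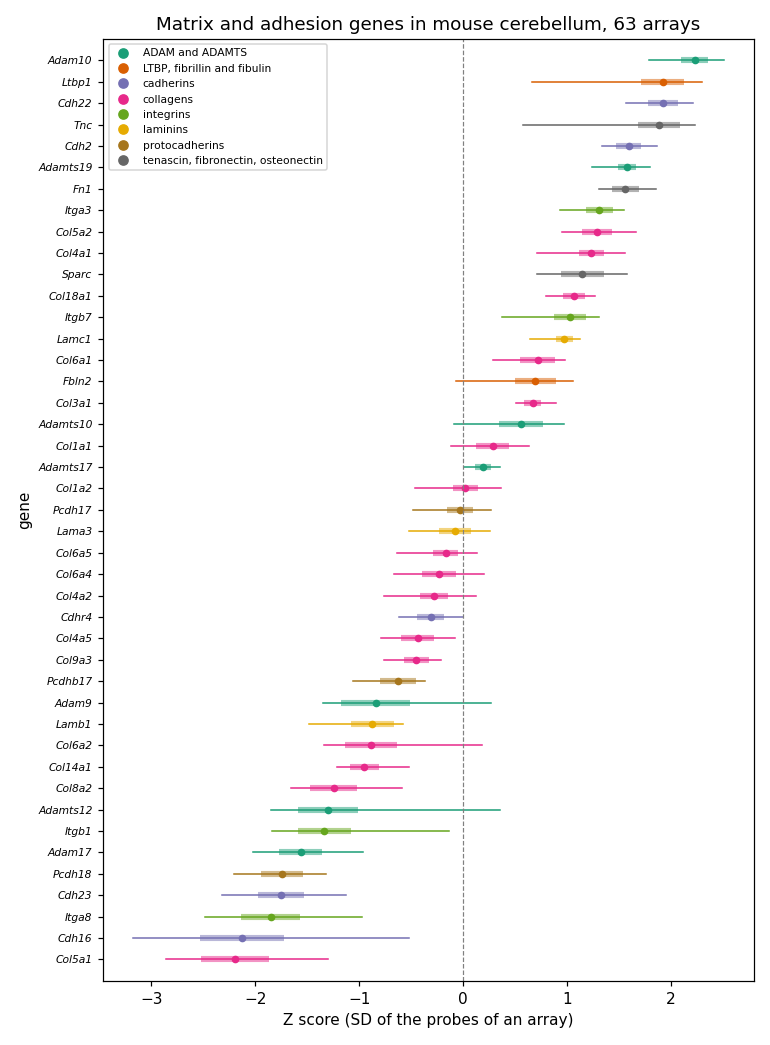
Z score of each of the 43 genes over 63 arrays, in units of the SD of an array's probes. Points are means, thick bars ± SD and thin lines the range, coloured by family. The genes run from Adam10 at 2.23 to Col5a1 at -2.20, and 21 lie above 0.

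Families were spread over the whole scale. Of 16 collagens, 7 lay above 0, from Col5a2 at 1.29 to Col5a1 at -2.20, although these are chains of the same fibril-forming collagen V. The metalloproteinases ran from Adam10 to Adam17, the TNF-alpha converting enzyme, at -1.56, with 4 of 7 above 0. Of 5 cadherins, 2 lay above 0, and Cdh16, known as the kidney-specific cadherin, was the dimmest at -2.13. Among integrins, Itga3, a laminin receptor subunit, read 1.31, and Itgb1, its partner subunit, -1.33. The laminin chains Lamc1 and Lamb1 read 0.97 and -0.87. None of 3 protocadherins lay above 0. Tnc, fibronectin (Fn1, 1.56) and osteonectin (Sparc, 1.15) all did.

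Part of this order went with the place of a spot in the probe numbering. Probe numbers ran in blocks of 22, and of the probes at places 20 to 22 only 17.7% had a mean above 0, against 53.5% at places 1 to 19. Among the members, 11 probes stood at places 20 to 22, and 10 of these were below 0. Col5a1, Cdh16, Cdh23, Adam17, Adamts12, Col8a2 and Adam9 all stood at place 22, where the mean of 384 probes was -0.80. All 11 member probes at places 20 to 22 came from another series of clone records than the member probes at places 1 to 19. Place and clone series therefore cannot be told apart among the members, and their part in these levels was not tested. Dim members were also the more variable ones: over the 43 genes, the mean and the SD had a Spearman correlation of -0.55 (Pearson -0.62). For genes with several probes this was the SD of the probe average: Adamts17 had 0.077, and its probes 0.128 and 0.185. The part of averaging in this correlation was not tested. The median SD of the 43 genes was 0.158, beside 0.159 for all genes.

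Several genes had more than 1 probe, and these often differed in level. Over 15 probe pairs of 8 genes, the means differed by 0.17 to 1.69 Z units, with a median of 0.85. The 2 probes of Col1a2, a chain of collagen I, read 0.87 and -0.83, and the 4 probes of Col3a1 read from -0.11 to 1.47. Over the 63 arrays, which share their normalization, the median Pearson correlation of such pairs was 0.06. The range ran from -0.57 for Adamts17 to 0.67 for Cdh2. Each gene name therefore stands for the probe as annotated, and the pair of Cdh2 probes, the most alike, had a Spearman correlation of 0.73.

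Members whose products act together had correlations of either sign. Over 53 adult arrays, the median Pearson correlation of the 903 pairs of members was 0.02. Col4a1 and Col4a2, with the shared promoter windows above, had r = 0.06 (Spearman -0.03), and Col6a1 and Col6a2 had r = -0.51 (Spearman -0.49). Lamb1 and Lamc1, chains of common laminin trimers, had r = -0.28 (Spearman -0.36), and Itga3 and Itgb1 had r = -0.15 (Spearman -0.11). Cdh2 and Cdh22, both classical cadherins, had r = 0.80 (Spearman 0.82), and Adam10 with its substrate Cdh2 had 0.64 (Spearman 0.58). Col3a1 and Col5a2, chains found in mixed fibrils, had 0.61 (Spearman 0.66). The highest value was 0.88, between Col4a1 and Tnc (Spearman 0.85), and Col5a2 with Fn1 followed at 0.84 (Spearman 0.86). Adamts10 ran opposite to Cdh2 at -0.81 (Spearman -0.79). All of these probes share the scaling of each array, and no test is attached.

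The juvenile comparison asked which members differ between the growing and the adult cerebellum. With all 5 third-week mice, 3 members, Ltbp1, Tnc and Col4a1, were higher in adults, whereas 40 did not pass. These were 6.98% of the members, against 1.4% of all 7782 features called in that comparison (109, of which 100 were higher). All 3 calls depended on 1 mouse, the first third-week male, as the values of each mouse show. Ltbp1 in adult ad libitum mice ran from 1.63 over a median of 1.94 to 2.16. In the third week it read 1.90, 1.77 and 1.81 in the females and 0.66 and 1.76 in the males. Only the first male lay below the adults. The difference was 0.40 ± 0.09 Z units (SE, limma adjusted p = 0.0059) with that mouse, and 0.13 ± 0.08 without it (adjusted p = 0.546).

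Tenascin C gave the same picture. It ran from 1.70 over 1.90 to 2.21 in adult ad libitum mice, against 1.85, 1.73 and 1.79 in third-week females and 0.58 and 1.86 in third-week males. The difference was 0.39 ± 0.09 with all 5 mice (limma adjusted p = 0.0077), and 0.07 ± 0.08 without the first male (adjusted p = 0.683). Col4a1 ran from 1.08 over 1.28 to 1.56 in adults, against 1.22, 1.11 and 1.18 in third-week females and 0.72 and 1.12 in third-week males. Its difference was 0.21 ± 0.06 (limma adjusted p = 0.031), and 0.11 ± 0.07 without that mouse (adjusted p = 0.532). The 2 probes of Col4a1 parted on that array. One read 0.03 there, against 0.99 to 1.15 in the other third-week mice, and the other read 1.40, at the top of their 1.09 to 1.40.

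**Figure D2:**
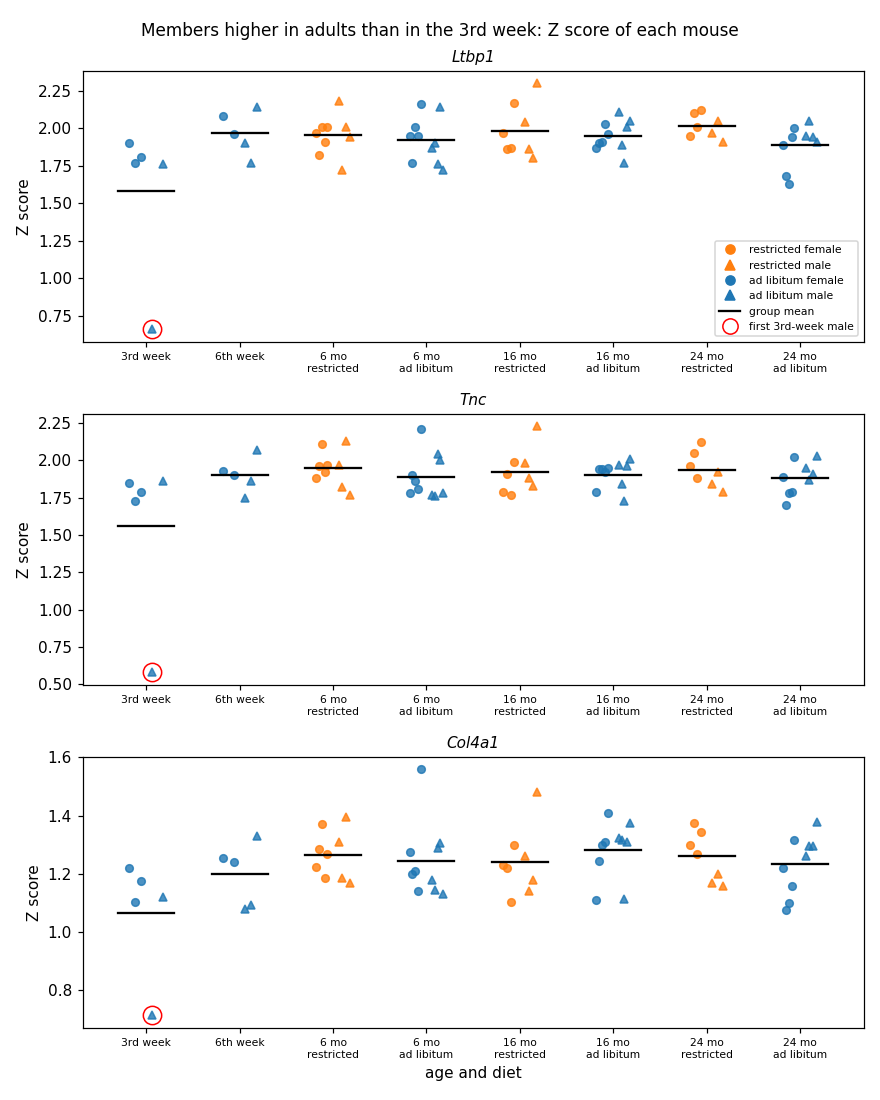
Z score of Ltbp1, Tnc and Col4a1 in each mouse by age and diet, with circles for females, triangles for males and black lines for group means. The ringed first third-week male reads 0.66, 0.58 and 0.72, and the other 4 third-week mice lie within the adult range in all 3 genes.

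Without the first male, 0 of the 43 members and 1 of 7782 features (0.0129%) were called by limma between adults and the third week. For the other third-week mice, the median correlation of an array with the others was 0.962 to 0.974. It was 0.922 for a restricted female of 16 months and 0.927 for an ad libitum female of 6 months. The array of the first male had the lowest value of the 63, 0.921. On it 7 members lay below both the other third-week mice and all adult ad libitum mice, namely Col1a2, Col4a1, Col4a2, Col6a5, Itgb1, Ltbp1 and Tnc (16.3% of members, beside 11.8% of all features). Another 7 lay above both, namely Adamts10, Adamts19, Cdhr4, Col18a1, Fbln2, Itgb7 and Pcdh17 (16.3% of members, beside 10.8% of all features). Leaving out the second third-week male instead, which left the first as the 1 male of that age, gave 6 called members (14.0%), beside 697 of all features (8.96%). Without the second or the third female, Ltbp1 and Tnc were called (4.65% of members, beside 0.694% and 0.835% of all features) and Col4a1 was not.

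**Figure D3:**
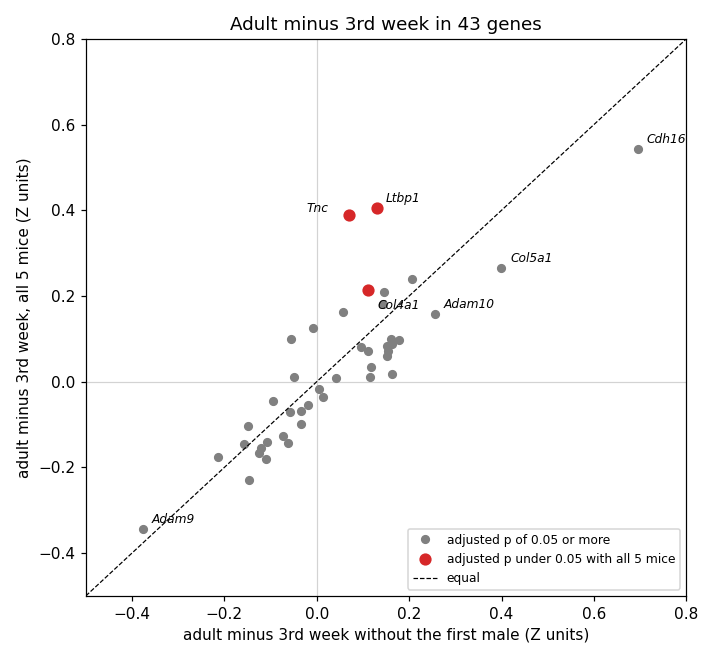
Adult minus third-week difference of the 43 genes in Z units, with all 5 third-week mice on the vertical axis and without the first male on the horizontal axis. Tnc and Ltbp1, in red with Col4a1, lie at 0.39 and 0.40 on the vertical axis and at 0.07 and 0.13 on the horizontal axis.

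Within the runs of array numbers, the difference of Ltbp1 was 0.62 in the run that held the first male. It was 0.04, 0.06 and 0.24 in the other 3 runs with a third-week mouse. For Tnc it was 0.69 in that run, and 0.01, 0.10 and 0.04 in the others. The sources used here do not say what the runs stand for.

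At an unadjusted p under 0.05 there were 10 members with all mice, the called ones included (23.3%, against 20.2% of all features). Of the members that did not pass, Cdh16 had the highest difference, on a dim spot. It ran from -2.74 over -2.09 to -1.38 in adults, against -1.92, -2.37 and -2.33 in third-week females and -2.57 and -3.18 in third-week males. Its difference was 0.54 ± 0.18 (limma adjusted p = 0.138), and 0.69 ± 0.23 without the first male (adjusted p = 0.481). Adam9, a metalloproteinase, had the lowest difference, -0.34 ± 0.16 (adjusted p = 0.219). It read -0.19 and -0.06 in the third-week males and -1.12, -0.88 and -0.58 in the females, and the adult range of -1.34 to 0.27 covered both. Adam10 differed by 0.16 ± 0.07 (adjusted p = 0.190) and by 0.26 ± 0.08 without the first male. In that fit the second male alone stood for the third-week males, with the same weight as the females together. He read 1.79 for Adam10, against 2.10 to 2.21 in the other third-week mice, and -3.18 for Cdh16.

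By family, the adult minus third-week difference with all 5 mice had a median of 0.08 over the 16 collagens, beside -0.002 over all features. Of the collagens, 12 were positive, and values ran from -0.14 for Col8a2 to 0.27 for Col5a1. Without the first male, Col4a2, Col6a5 and Col9a3 turned negative (-0.01, -0.06 and -0.05), and the other collagens kept their sign. With all 5 mice, the median was -0.04 over the 7 metalloproteinases and 0.09 over the 5 cadherins. Without the first male, Adam17, which held the median of the metalloproteinases, turned to 0.01. The other metalloproteinases and the cadherins kept their sign. All 3 protocadherins had negative differences with all 5 mice, from -0.16 for Pcdh17 to -0.07 for Pcdh18, and none was called. For 5 further members, chosen after their values were seen, the difference did not pass. N-cadherin (Cdh2) averaged 1.60 ± 0.12 in adult ad libitum mice and 1.52 ± 0.12 in the third week, and Cdh22 1.92 ± 0.16 and 1.86 ± 0.16 (SD). Itgb1 averaged -1.31 ± 0.22 in adults and -1.49 ± 0.24 in the third week, with ranges of -1.62 to -0.78 and -1.84 to -1.23. Sparc, a collagen-binding protein of astrocytes and Bergmann glia, averaged 1.14 ± 0.20 and 1.16 ± 0.26, and Lamc1 0.99 ± 0.08 and 0.98 ± 0.06. The adult and third-week ranges overlapped for each of these 5 genes.

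Between the sixth and the third week, 1 member passed, again Ltbp1 (2.33% of members, against 0.308% of all features). It read 2.08 and 1.96 in sixth-week females and 1.90, 1.77 and 2.14 in sixth-week males, beside the third-week values above. The difference was 0.46 ± 0.11 (limma adjusted p = 0.049), and 0.19 ± 0.10 without the first third-week male (adjusted p = 0.780). Without that mouse 0 members were called, and 0.0129% of all features. The call of Ltbp1 was also lost without any 1 of the 3 third-week females, either sixth-week female or 2 of the 3 sixth-week males (the second was the exception). Without the second third-week male, 6 members were called (14.0%), beside 628 of all features (8.07%). With the array run as a block the difference of Ltbp1 was 0.38 ± 0.11 (adjusted p = 0.190), with all 66 arrays 0.46 ± 0.12 (adjusted p = 0.0845) and after quantile normalization 0.35 ± 0.10 (adjusted p = 0.143), so that 0 members were called in each. At an unadjusted p under 0.05 there were 8 members with all mice (18.6%, against 13.4% of all features). Of these, 5 were higher and the others, Adam9, Col8a2 and Fbln2, lower. Between adults and the sixth week, limma called 0 members and 0% of all features, and 0 members had an unadjusted p under 0.05 (2.08% of all features). Cdh16, Col3a1 and Col8a2 came closest, with differences of 0.36, 0.07 and 0.15 (adjusted p = 1.0 each).

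Adult ageing was compared in ad libitum mice. Limma called 0 of 43 members, and 0% of all features, between 16 and 6, 24 and 16, and 24 and 6 months. Differences between 24 and 6 months ran from -0.11 (Lamb1) to 0.19 (Cdh16), and 37 members differed by less than 0.1 Z units. The median 95% interval of a member was its difference ± 0.15, and for 36 members the whole interval lay within ± 0.3. Among the brightest members, Adam10 averaged 2.21 ± 0.14 at 6, 2.24 ± 0.06 at 16 and 2.25 ± 0.16 at 24 months, and Fn1 averaged 1.55 ± 0.16, 1.60 ± 0.14 and 1.57 ± 0.17 (SD). By family, the median difference between 24 and 6 months lay between -0.07 (Ltbp1 and Fbln2) and 0.03 (cadherins).

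At an unadjusted p under 0.05, 2 members differed between 16 and 6 months (4.65%, against 1.34% of features), 2 between 24 and 16 months (4.65%, against 3.92%) and 0 between 24 and 6 months (2.49% of features). Col8a2, a short-chain collagen known from the cornea, ran from -1.44 over -1.06 to -0.59 at 24 months, against -1.63 over -1.47 to -1.05 at 16 months. The ranges overlapped, and the difference was 0.31 ± 0.10 (unadjusted p = 0.0023, adjusted p = 1.000). Its 6-month values, -1.51 over -1.22 to -0.90, lay between. Col6a4, a collagen VI chain, was 0.15 ± 0.07 higher at 16 than at 6 months and -0.17 ± 0.07 at 24 minus 16 months (adjusted p = 1.0 each). Col9a3 between 16 and 6 months, Col5a1 between 24 and 16 months, and Col1a1 and Col4a2 between 24 and 6 months completed the smallest p values, with differences of 0.10, 0.29, -0.10 and -0.08.

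Itgb7, an integrin subunit known from lymphocytes, met the Z-ratio thresholds at 16 minus 6 months. These take from the study's methods a Z-ratio of 1.5 in either direction, a mean above 0 and an unadjusted p under 0.05, here from limma, and leave out the later analysis of variance over ages, sexes and diets. Here 1 member met them (2.33%) against 0.116% of all features. Between 24 and 16 and between 24 and 6 months, 0 members met them, against 0.771% and 0.475% of all features. It ran from 0.37 over 1.02 to 1.15 at 16 months, against 0.89 over 1.06 to 1.25 at 6 months. The value of 0.37 came from 1 female, whose array had a median correlation of 0.931 with the others. With her the difference was -0.13 ± 0.07, and without her -0.07 (unadjusted p = 0.245).

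**Figure D4:**
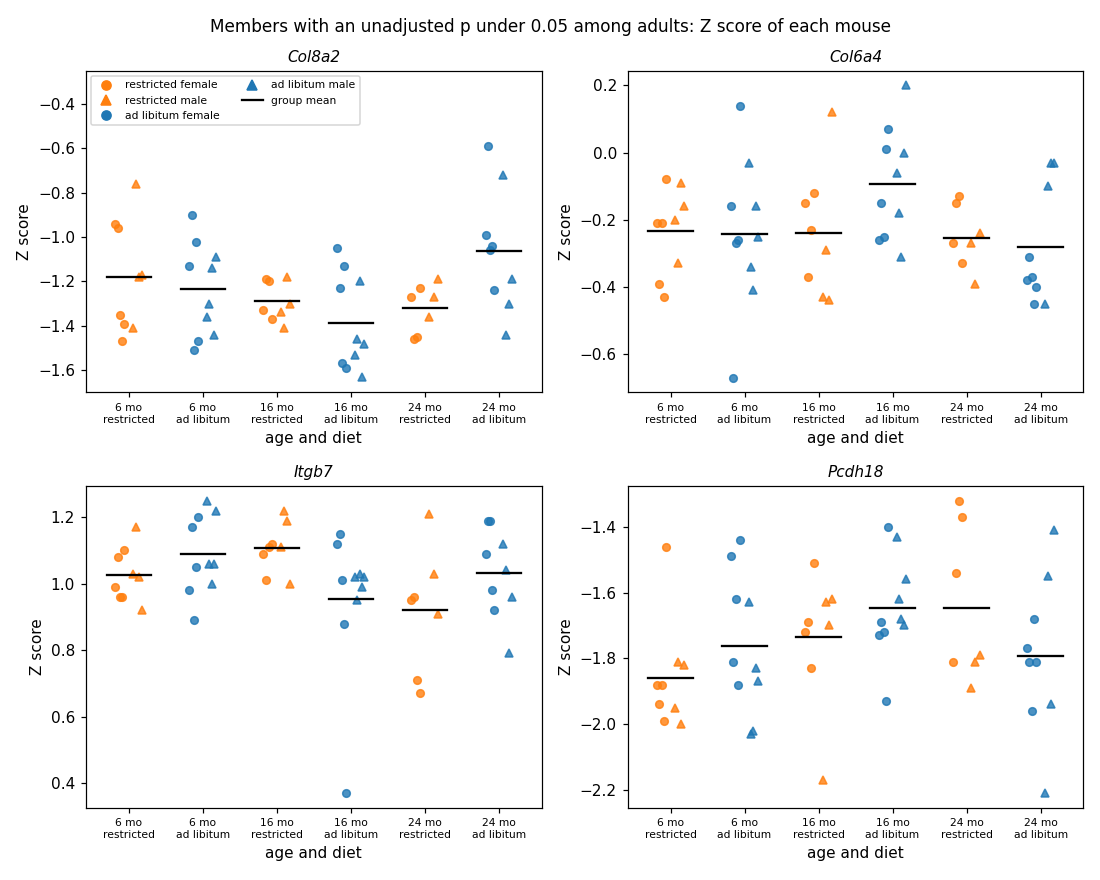
Z score of Col8a2, Col6a4, Itgb7 and Pcdh18 in each adult mouse by age and diet, with circles for females, triangles for males and black lines for group means. The groups overlap in each panel, and 1 ad libitum female of 16 months reads 0.37 for Itgb7.

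Diet was compared at each adult age. Limma called 0 members, and 0% of all features, at 6, 16 and 24 months and over the 3 ages together. Over the 3 ages, differences between restricted and ad libitum mice ran from -0.18 (Cdh16) to 0.09 (Adam17), and 42 of 43 members differed by less than 0.1 Z units. The median 95% interval was ± 0.0904, and for 42 members it lay within ± 0.3. Adam10 averaged 2.25 ± 0.12 in restricted mice and 2.23 ± 0.12 in ad libitum mice, Tnc 1.94 ± 0.12 and 1.89 ± 0.12, and Col4a1 1.255 ± 0.09 and 1.253 ± 0.11 (SD). Cdh16, Lamc1 and Adam17 had the smallest p values, with differences of -0.18 ± 0.10, -0.05 ± 0.03 and 0.09 ± 0.06 (adjusted p = 1.000 each). At an unadjusted p under 0.05 there were 0 members, against 1.64% of features. The Z-ratio thresholds were met by 0 members, against 0.321% of features. By family, 5 of 16 collagens were higher in restricted mice in sign, with a median of -0.01, and the metalloproteinases had a median of 0.01. Itgb1 averaged -1.32 ± 0.29 in restricted mice and -1.31 ± 0.22 in ad libitum mice, and Sparc 1.15 ± 0.21 and 1.14 ± 0.20 (SD).

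**Figure D5:**
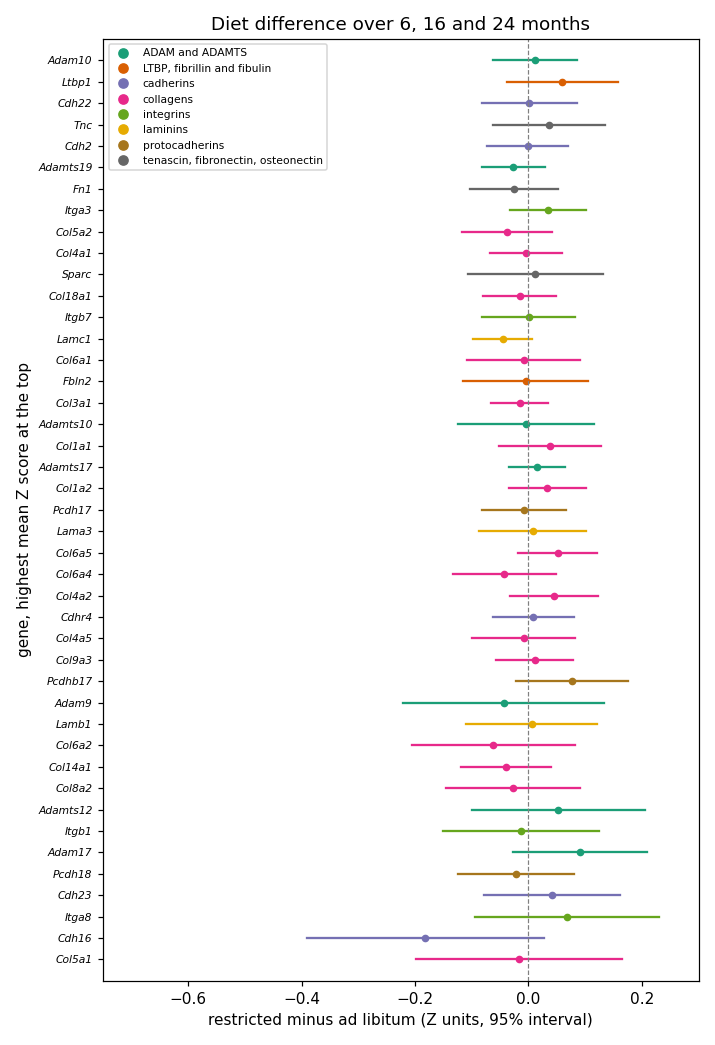
Restricted minus ad libitum difference of the 43 genes over 6, 16 and 24 months in Z units, with 95% intervals, ordered by mean Z score and coloured by family. Every interval includes 0, and only Cdh16 at -0.18 lies beyond 0.1 in either direction.

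By age, unadjusted p values under 0.05 were had by 0 members at 6 months (0.655% of features), 1 at 16 months (2.33% of members, 2.13% of features) and 1 at 24 months (2.33% and 2.25%). At 16 months this was Itgb7, which ran from 1.00 over 1.11 to 1.22 in restricted mice, against 0.37 over 1.02 to 1.15 in ad libitum mice. The difference was 0.15 ± 0.07, and 0.09 without the ad libitum female at 0.37 (unadjusted p = 0.163). It also met the Z-ratio thresholds, as did 0.668% of all features. Col6a4 and Pcdhb17 followed at -0.15 and 0.16. At 24 months it was Col8a2, which ran from -1.46 over -1.27 to -1.19 in restricted mice, against -1.44 over -1.06 to -0.59 in ad libitum mice. The difference was -0.24 ± 0.11 (unadjusted p = 0.031, adjusted p = 0.999), and the lower part of the ranges coincided. Col14a1 and Lamc1 followed at -0.11 and -0.07. The Z-ratio thresholds were met by 0 members at 24 months (0.321% of features) and by 0 at 6 months (0.0257% of features). At 6 months Col6a5, Pcdh18 and Col4a5 had differences of 0.07, -0.10 and 0.08.

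In restricted mice alone, 0 members and 0% of features were called between 24 and 6 months. Pcdh18, a protocadherin, was the 1 member with an unadjusted p under 0.05 (2.33% of members, 1.12% of features). It ran from -1.89 over -1.79 to -1.32 at 24 months, against -2.0 over -1.88 to -1.46 at 6 months, a difference of 0.19 ± 0.09. Lamb1 and Col8a2 followed at -0.15 and -0.14. The difference between the diets in the change from 6 to 24 months was tested as well, with 0 members and 0% of features called. Col8a2 had the smallest p there, -0.30 ± 0.15 (unadjusted p = 0.045, adjusted p = 1.0). It was the 1 member under 0.05, as were 0.9% of features. Pcdh18 and Col14a1 gave 0.22 and -0.08. The Z-ratio thresholds were met by 0 members in the restricted change (0.09% of features) and by 0 in the difference between diets (0.0643% of features).

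The diet values depended on leaving out 3 restricted arrays, a male and a female of 16 months and a female of 24 months, whose median correlation with the others was 0.695, 0.701 and 0.820. On these, 10, 8 and 22 of the 43 members lay outside the range of the other 63 arrays (23.3%, 18.6% and 51.2%), as did 16.7%, 18.0% and 43.4% of all features. Fbln2, a matrix protein of basement membranes and elastic fibres, read -4.11 and -2.64 in the 2 restricted mice of 16 months, against -0.07 to 1.06 on the other 63 arrays. Col1a1 read -2.62 and -2.64 there, against -0.12 to 0.63. Both spots stood at place 8 of their block, where the mean of all probes was -2.70 and -2.69 on these 2 arrays, against 0.18 to 0.44 on the other 63. The restricted minus ad libitum difference at 16 months was 0.01 ± 0.09 for Fbln2 and -0.04 ± 0.08 for Col1a1 on the 63 arrays. With all 66 arrays it was -0.80 ± 0.33 and -0.62 ± 0.23 (limma adjusted p = 0.412 and 0.40). At an unadjusted p under 0.05 there were then 5 members at 16 months, namely Col1a1, Fbln2, Fn1, Lamc1 and Pcdhb17 (11.6%, against 8.64% of all features), and Itgb7 was no longer among them. With the 63 arrays it was the 1 such member.

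Other genes of these pathways came from lists of known members. Of 8 genes for collagen processing on the filter, Bmp1, the procollagen C-proteinase, was higher in adults than in the third week (0.34 ± 0.09, limma adjusted p = 0.025), and 0 were lower. Of 5 matrix proteases and inhibitors, Timp3, an inhibitor of metalloproteinases, was higher (0.25 ± 0.07, adjusted p = 0.031). Of all features, 1.4% were called in that comparison (109, of which 100 were higher). Both leaned on the same mouse: Bmp1 read -0.39 in the first third-week male, against 0.31 to 0.45 in the others, and Timp3 -0.29 against 0.30 to 0.60. None of 11 proteoglycans and link proteins, 5 basement membrane linkers, 6 intracellular adhesion partners and 7 other neural adhesion molecules passed. In the adult age and diet comparisons 0 genes of these 6 lists were called, and 0% of all features.

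Markers of other cells were sparse. Of 12 markers of meninges and fibroblasts, 5 were on the filter, and their summed Z score ran from 0.93 to 2.93 in restricted adults, 0.89 to 3.03 in ad libitum adults and 0.49 to 1.68 in the third week. The lowest was the first male, and his low sum lay in Slc6a13 alone. Summed without it, the list was not lower in him than in the other third-week mice. Slc6a13, a transporter of the meninges, was the 1 marker of that list that was called, as higher in adults than in the third week. In that comparison, used also for Ccnd2 below, 1.4% of all features were called. Slc6a13 read 0.71 in the first male, against 1.92 to 2.17 in the other third-week mice. Pdgfrb was the 1 endothelial and pericyte marker of 14, at 0.20 in the first male and 0.68 to 0.86 in the others. Among 4 of 14 markers of granule cell progenitors and dividing cells, Ccnd2 was called as higher in adults (0.19 ± 0.05), at 0.36 in the first male and 0.51 to 0.67 in the other third-week mice. The other list members, Ccna2, Mcm2 and Top2a, had differences of -0.17, -0.07 and -0.06 and were not called, and the median of the 4 was -0.07. Blood markers (4 of 8) ran from -1.72 to -0.69 in the third week and from -1.90 to -0.16 in ad libitum adults. Markers of astrocytes and Bergmann glia (3 of 10) summed to 1.13 in the first male, against 1.89 to 2.42 in the other third-week mice. Markers of Purkinje cells (2 of 8) summed to 0.21 in him, against 0.64 to 1.17, and those of microglia (3 of 9) to 0.31, against -0.81 to 0.14. The part of these cells in the members' values was not tested. Of the genes that define the tissue, Car8 and Calb1 of Purkinje cells averaged 0.84 and -0.02, and 0 of 9 granule cell markers, 0 of 10 oligodendrocyte markers and 0 of 7 choroid plexus markers had a single-symbol probe.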

How the data were processed

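Total RNA of each mouse was labelled with a radioactive nucleotide and hybridized to a nylon cDNA filter. The authors quantified the spots and deposited a Z score for each probe, centred and scaled within its array. The sources used here do not say whether logarithms were taken first. Scores had 2 decimals, 0 were missing, and no signal over background or fold can be had, so the number of arrays limits the precision. Each array was 1 mouse.

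Groups came from the labels. Probes of a gene were averaged, and probes with several or no symbols were kept as they were, giving 7782 features. A mean for each of 16 groups of sex, age and diet was fitted on 63 arrays by limma (version 3.58.1, under R 4.3.3) with moderated statistics from eBayes, and the sexes were weighted equally. Tests were two-sided, and calls had a Benjamini-Hochberg adjusted p under 0.05 over all features. Arrays with a median correlation under 0.9 with the others (3 of 66) were left out. The fit was tested on simulated data with independent noise and no deviating array. That test does not cover arrays like that of the first third-week male.

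Members and lists were chosen with earlier results of these data known. Genes were named where called (up to 8 each way), otherwise the 3 smallest p values of a comparison, with the 8 highest means and the brightest of each family. Genes named beside these were chosen after their values were seen. The filter, the array runs, the position of probes, the normalization, array weights, probe choice, adult ages, single replicates, females alone and the call rule (Z-ratio thresholds after the study's methods, without their analysis of variance) were varied.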

Additional observations from a re-analysis of the deposited data

Results flagged for a closer look

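For 28 named genes, each group of 5 to 10 mice was searched for a mouse far from the rest of its group. This singled out 16 values in 224 groups (7.14%), and chance gives about 1 in 20 independent groups. The genes were named by their values in these data and share arrays, so that rate does not apply to them directly. Of the 16 values, 3 came from the first third-week male: 0.66 for Ltbp1, 0.58 for Tnc and 0.715 for Col4a1. The second third-week male read 1.79 for Adam10 (2.10 to 2.21 in the others) and -0.28 for Col9a3 (-0.54 to -0.50). One sixth-week female read 1.24 for Adamts19.

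In restricted mice, the same 6-month female read -0.52 for Cdh16 (-2.62 to -2.10 in the others) and -1.46 for Pcdh18, the same 24-month male read -0.72 for Col4a5 and -0.47 for Pcdhb17, and a 16-month female read 0.645 for Lamc1. In ad libitum mice, the same 6-month female read 0.855 for Col3a1 and 1.56 for Col4a1. A 16-month male read 0.63 for Col1a1, a 16-month female 0.37 for Itgb7 and a 24-month male 1.76 for Adamts19. The adult values given here for Cdh16, Pcdh18, Lamc1, Col3a1, Col4a1, Itgb7 and Adamts19 all came from the last run of array numbers.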

How the results depend on the processing

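Between adults and the third week, leaving out single mice gave 0 to 6 called members. The count was 0 without the first third-week male and 6 without the second, where 8.96% of all features were called against 1.4% with all mice. It was 1 (Ltbp1) with adults of 6 months alone, beside 0.411% of all features. Other settings of the processing gave 2 or 3 members (4.65% or 6.98%). The share of all features moved with them, from 0.591% with array weights to 3.4% where features with a mean of 0 or less were left out. Correcting for probe position gave the same 3 genes, beside 1.82% of all features. Between the sixth and the third week, the count was 0 with all 66 arrays, with the array run as a block and after quantile normalization, and leaving out single mice gave 0 to 6, the 6 again without the second third-week male (8.07% of all features). The causes were not tested. In the other 10 comparisons, every alternative based on the adjusted p gave 0 members, and the Z-ratio thresholds gave 1 member (Itgb7) at 16 minus 6 months ad libitum and 1 for diet at 16 months. In females alone, where the restricted males of 673 days were absent, Col14a1 turned to 0.048 for diet at 24 months and to 0.174 for the diet difference in 24 minus 6 months. The setting with all 66 arrays and corrected positions was chosen after seeing the data. The labels gave no replicate numbers, so no fit was paired by them; mice were matched only by the array run, as a block.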
